A study of Homo sapiens with 9 samples.

Results

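The cell cycle genes described here are 50 genes of the 6819 in the deposited table, with 145 of its 20909 listed transcripts. They are the genes that the authors' KEGG annotation assigns to the cell cycle pathway and not to PI3K-Akt signalling, with CDKN1A and MYC also set aside, and the listed transcripts of each gene were added up. The rule itself uses no measured value, but it was set with earlier results of these data known. The table it draws on holds only transcripts 2-fold or more apart in control 1 and SH1 1. The study sequenced total RNA of Caki-1, a human line of clear cell renal carcinoma, in 9 libraries. Of these, 3 are controls (genotype WT in the labels, sample names CAKI_1NC), 3 are named SH1 and 3 are named SH3. In the latter 6, TAF1D was knocked down with short hairpin RNA. The labels do not say what the control carries, what SH1 and SH3 stand for, whether a group is 1 clone, or whether libraries 1 to 3 are separate cultures. So p-values reflect only how these libraries vary, which may be technical. TAF1D belongs to the SL1 complex, which recruits RNA polymerase I to ribosomal RNA genes. The study is about what this gene does in kidney carcinoma and, by its title, about PI3K/AKT/mTOR. The comparisons were SH1 against control, SH3 against control, both knockdown groups against control, and SH3 against SH1.

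The cell cycle runs on cyclin-dependent kinases, which are switched on by cyclins and by CDC25 phosphatases and held back by kinase inhibitors and by the opposing kinases WEE1 and PKMYT1. Active kinases release E2F transcription factors from retinoblastoma family proteins, and E2F with its partners TFDP1 and TFDP2 turns on genes of DNA replication. Origins are licensed by the origin recognition complex, CDC6 and the MCM helicase and then fired by CDC7 with DBF4 and by CDC45. In mitosis the spindle checkpoint restrains the anaphase-promoting complex, a ubiquitin ligase that destroys cyclins and securin and thereby frees separase to cut cohesin. DNA damage stops this sequence through ATM, ATR, CHEK1 and CHEK2.

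The table is a selection of transcripts and not a whole transcriptome. All 145 cell cycle transcripts, like all 20909 listed ones, were 2-fold or more apart in control 1 and SH1 1, and 72 of the 145 were higher in SH1 1. Such a selection favours extreme values in control 1 and SH1 1, by an amount that was not measured. Further transcripts of the 50 genes were not analysed here. TAF1D itself was not analysed here, so its knockdown has no check in these data. The listed transcripts held 1358215 to 1596467 estimated counts per library, of which the cell cycle genes took 8793 to 10877. Of the 20 renal and clear cell carcinoma markers 5 were listed, with a summed level of 80.8 to 104.2 FPKM in control, 31.3 to 34.2 in SH1 and 75.8 to 88.9 in SH3; the sum is mostly KRT19, a keratin (70.1 to 89.5 FPKM in control, 15.4 to 21.6 in SH1, 60.3 to 66.6 in SH3). PAX8, a renal transcription factor, had 1.44 to 3.08 FPKM in control, 4.44 to 6.65 in SH1 and 2.88 to 9.97 in SH3. VEGFA, an angiogenic factor, had 5.63 to 6.88, 6.0 to 9.32 and 12.1 to 12.4 FPKM, the cadherin CDH6 0.78 to 1.08, 0.23 to 0.35 and 0.09 to 0.11, and LHX1 0 to 3.97, 0 to 1.09 and 0 to 1.42, in the same order. Of the 5 endothelial markers 0 were listed. Of the 7 fibroblast markers, PDGFRB alone was listed, at 0.16 to 0.34 FPKM. Of the 7 blood markers, CD68 alone was listed, at 7.84 to 12.5 FPKM in control, 13.2 to 17.8 in SH1 and 12.7 to 14.1 in SH3. The part of these markers in the results below was not tested.

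Many cell cycle genes share promoter sequences that bind E2F or the CCAAT-binding factor NF-Y. In the RefSeq promoter windows (assembly GRCh38.p14, 300 bases from 250 before to 50 after a transcript start), 45 of the 50 genes were matched. At least 1 of the E2F forms TTTCCCGC, TTTGGCGC, TTTCGCGC and TTTGCCGC stood on either strand in 13 of these 45 genes (28.9%), against 3.99% of 27305 genes. CCAAT stood in 29 of them (64.4%), against 39.7% of all genes. The cell cycle homology element TTTGAA stood in 8 (17.8%), against 18.2%. No listed motif contains another. The windows of 3 genes described below are printed 5′ to 3′, with E2F forms and CCAAT, on either strand, in capitals. They are CDC25A and STAG1, whose sums differed most from control relative to their error, and RBL1, whose listed transcripts changed places, as in most genes. Each holds an E2F form. In CDC25A it begins 44 bases before the start, in RBL1 the first of 2 forms begins 26 bases before, and in STAG1 it begins 183 bases before. TGFB2, CDC25B, CDC25C, ESPL1 and CCNA1, also described below, held no E2F form in any window.
CDC25A, chr3:48188368-48188667, minus strand: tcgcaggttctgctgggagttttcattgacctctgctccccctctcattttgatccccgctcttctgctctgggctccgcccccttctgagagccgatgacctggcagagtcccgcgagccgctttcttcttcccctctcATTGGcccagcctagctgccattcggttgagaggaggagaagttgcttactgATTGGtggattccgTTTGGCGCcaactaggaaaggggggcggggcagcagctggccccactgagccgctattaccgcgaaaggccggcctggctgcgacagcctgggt
RBL1, chr20:37095948-37096247, minus strand: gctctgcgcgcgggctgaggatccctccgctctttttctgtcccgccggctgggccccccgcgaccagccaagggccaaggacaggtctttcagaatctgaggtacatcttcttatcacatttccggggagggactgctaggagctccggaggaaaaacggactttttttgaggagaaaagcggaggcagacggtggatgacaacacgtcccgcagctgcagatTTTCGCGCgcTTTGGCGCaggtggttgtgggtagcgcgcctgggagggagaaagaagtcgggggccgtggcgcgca
STAG1, chr3:136752329-136752628, minus strand: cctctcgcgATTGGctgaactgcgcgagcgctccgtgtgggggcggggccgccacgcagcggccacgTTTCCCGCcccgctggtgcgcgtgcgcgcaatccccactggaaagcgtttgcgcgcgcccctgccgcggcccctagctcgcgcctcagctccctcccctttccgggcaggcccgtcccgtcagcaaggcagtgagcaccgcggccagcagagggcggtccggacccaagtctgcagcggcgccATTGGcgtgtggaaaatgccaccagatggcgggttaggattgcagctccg
A match describes these letters in this window and is no binding site by itself.

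The listed transcripts of the 50 genes stood at low to moderate levels that varied widely between libraries of a group. Only 15 of the 50 genes have a listed transcript that GENCODE 29 marks as principal. These levels can therefore leave out a gene's main transcript and are not the level of the whole gene. A summed level is the sum of the deposited FPKM (fragments scaled to transcript length and library size) over a gene's listed transcripts. Its mean over the 9 libraries was at least 1 FPKM in 40 genes and at least 5 FPKM in 9. The highest levels were those of ORC3, ANAPC15 and CDC25A. The 50 genes together stood at 154 ± 7.41 FPKM in control, 148 ± 8.96 in SH1 and 150 ± 9.63 in SH3 (mean ± SD, n = 3), so the groups differed by less than the spread between libraries. Of the 50 genes, 48 had enough counts to be tested, 30 had at least 10 counts in every library and 18 had 0 in at least 1 library. The 2 without a test were the cyclin CCNH, with 0.20 FPKM in control 1 and 0 in the other 8 libraries, and the phosphatase CDC14A, with 0.25 FPKM in control 1, 0.21 in SH1 2 and 0 in the other 7. The median coefficient of variation within a group was 48.2% over the 48 sums, against 49.3% over all 6398 gene sums tested.

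No cell cycle gene rose or fell past the threshold in any of the 4 comparisons. The test was edgeR's quasi-likelihood test on estimated counts, with p-values adjusted by Benjamini-Hochberg over all 6398 gene sums and a threshold of 0.05. The lowest adjusted p among the 48 genes was 0.133 in SH1 against control (STAG1), 0.304 in SH3 against control (CDC25A), 0.188 for both groups against control (CDC25A) and 0.565 in SH3 against SH1. The background of gene sums past that threshold was 2.14%, 0.406%, 1.11% and 1.36% in this order, and 0 of 48 lay close to each of these shares. At an unadjusted p under 0.05 there were 3 genes of 48 in SH1 (1 higher, 2 lower; background 11.5%), 2 in SH3 (1 higher, 1 lower; background 8.39%), 3 for both groups (1 higher, 2 lower; background 10.2%) and 0 in SH3 against SH1 (background 10.8%). Each of these counts lay below its background share. DESeq2, run as an alternative, called 3 genes in SH1 (STAG1 higher, CDC25A and TGFB2 lower; background 6.81%), 1 in SH3 (CDC25A lower; background 3.87%), those same 3 for both groups together (background 5.15%) and 0 in SH3 against SH1 (background 6.08%).

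The fitted differences of the 48 genes spread around 0. In SH1 against control, 18 were above 0 and 30 below, with a median log2 fold change of -0.20 against -0.03 over all genes tested. In SH3 against control, 23 were above and 25 below, with medians of -0.06 and -0.03. For both groups 18 were above and 30 below, with medians of -0.17 and -0.07. In SH3 against SH1 the split was 23 and 25 with medians of -0.04 and 0.00. DBF4, listed at 0 in all SH1 libraries, left both medians it touches at the same value when set to its bound. These medians are a description, and their range over other ways of processing is wider than their distance from the median of all genes. Counts scaled to library size did not overlap between the groups for 9 genes in SH1 against control (3 higher, 6 lower; background 19.7%), 9 in SH3 against control (4 higher, 5 lower; background 17.3%), 4 for both groups (1 higher, 3 lower; background 6.35%) and 5 in SH3 against SH1 (2 higher, 3 lower; background 22%). The 9 and 9 of 48 and the 4 of 48 lay near their background shares and the 5 of 48 below.

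**Figure D1:**
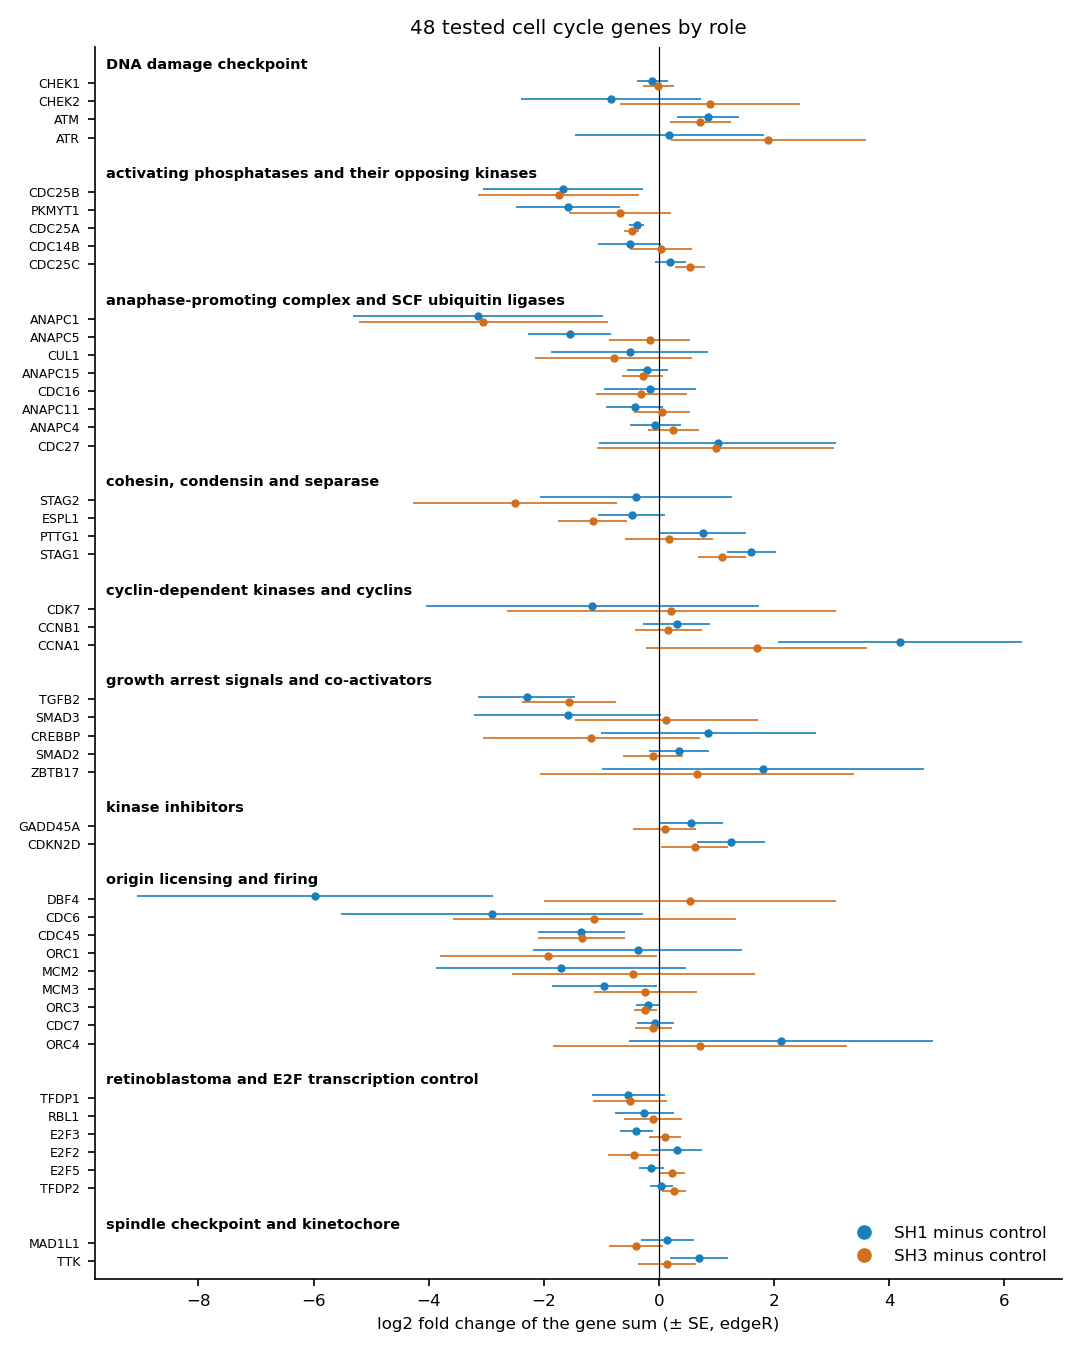
Fitted log2 fold change of the summed count of each of 48 tested cell cycle genes, grouped by role, for SH1 minus control (blue) and SH3 minus control (orange); bars are ± 1 standard error and the line marks 0. The error bars of CDC25A are among the shortest and lie below 0 in both comparisons, those of STAG1 lie above 0, and no gene passed the adjusted threshold.

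Among the phosphatases that activate cyclin-dependent kinases, CDC25A, which acts at entry into DNA replication, was lower in every knockdown library. Its summed level was 11.7, 12.2 and 12.1 FPKM in controls 1 to 3, 11.1, 10.3 and 9.75 in SH1, and 8.74, 9.67 and 9.28 in SH3. Neither knockdown group overlapped with control, and SH3 lay below SH1 on this scale. The log2 fold change was -0.39 ± 0.13 (SE) in SH1 (edgeR adjusted p = 0.299, DESeq2 adjusted p = 0.0234) and -0.47 ± 0.13 in SH3 (edgeR adjusted p = 0.304, DESeq2 adjusted p = 0.00251). For both groups it was -0.43 ± 0.11 (edgeR adjusted p = 0.188, DESeq2 adjusted p = 0.00113). Without control 1 and SH1 1 the fold changes were -0.43 in SH1 and -0.52 in SH3. In bulk RNA, less of a transcript per cell and fewer cells at the stage that expresses it cannot be told apart.

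CDC25C, the phosphatase of mitotic entry, stood at 6.65, 3.99 and 7.13 FPKM in control, 7.95, 8.44 and 6.19 in SH1, and 7.80, 9.95 and 9.40 in SH3. All 3 SH3 libraries were above all controls, and SH1 overlapped with both. The SH3 difference was 0.54 ± 0.27 (edgeR adjusted p = 0.664), and 0.34 without control 2. CDC25B, the third phosphatase, was spread over 1.52, 5.62 and 11.6 FPKM in control and stood at 2.23, 2.25 and 1.74 in SH1 and 2.97, 0 and 2.6 in SH3, with differences of -1.67 ± 1.39 and -1.74 ± 1.40. PKMYT1, a kinase that inhibits the mitotic kinase, reached 10.1 FPKM in control 3 and 6.01 in SH3 1 and lay between 0.80 and 2.31 elsewhere. CDC14B, a phosphatase that opposes mitotic kinases, stood at 4.40 ± 2.28 FPKM in control, 3.21 ± 2.06 in SH1 and 4.70 ± 0.74 in SH3. CDC25B and PKMYT1 lie outside the rule for named genes and were chosen after their values were seen.

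**Figure D2:**
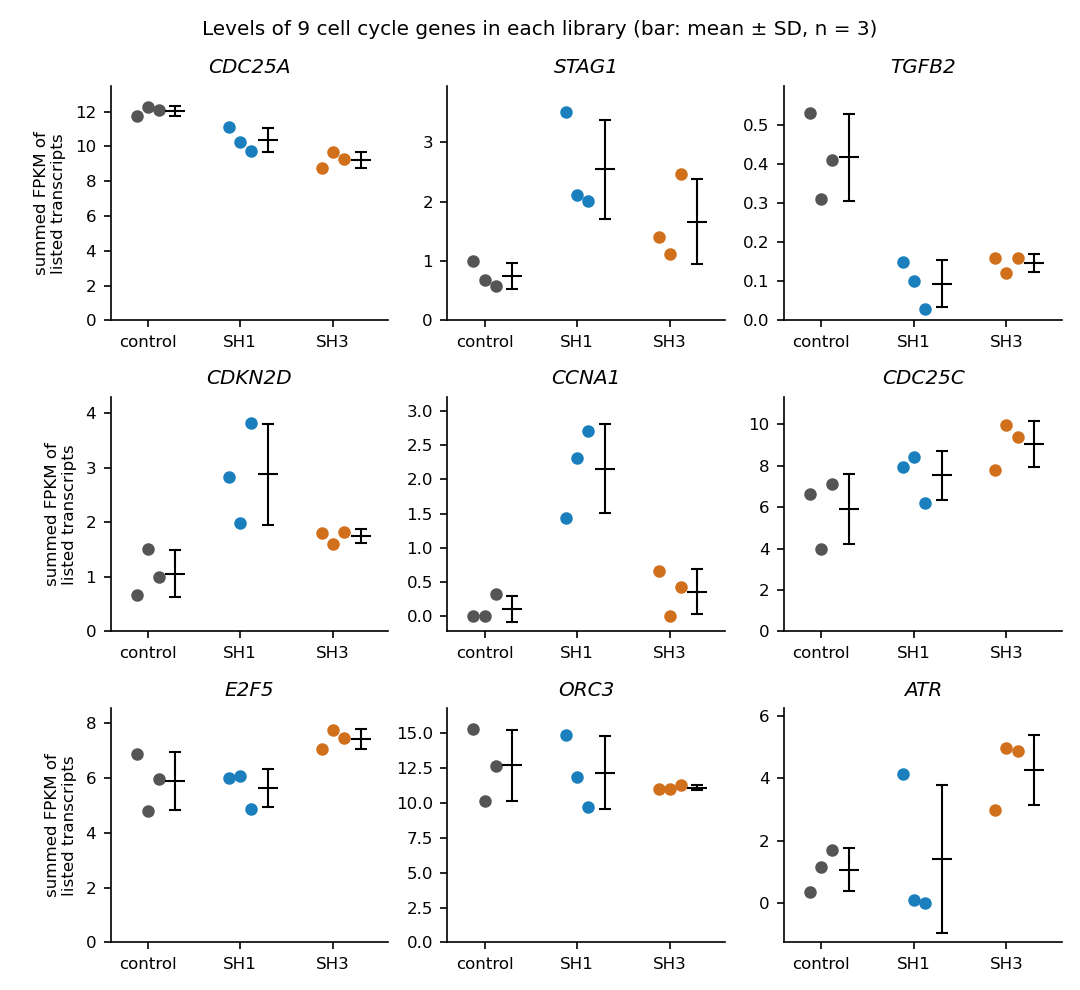
Summed FPKM of 9 cell cycle genes in each library, by group (control grey, SH1 blue, SH3 orange), with the mean ± SD of 3 libraries beside the points. All 6 knockdown libraries lie below all controls for CDC25A and TGFB2 and above them for STAG1, whereas ORC3 overlaps in all groups and ATR in SH1 rests on 1 library.

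Cohesin holds sister chromatids together, and STAG1 and STAG2 encode alternative subunits of it. STAG1 stood at 1.00, 0.68 and 0.58 FPKM in control, 3.51, 2.12 and 2.02 in SH1, and 1.40, 1.12 and 2.47 in SH3. All knockdown libraries were above all controls, and SH1 overlapped with SH3. The difference was 1.60 ± 0.42 in SH1 (edgeR adjusted p = 0.133, DESeq2 adjusted p = 0.00823) and 1.09 ± 0.42 in SH3 (edgeR adjusted p = 0.525, DESeq2 adjusted p = 0.220). In SH3 it was 0.68 without SH3 3. STAG2 was listed with 1 of its 35 protein-coding transcripts in RefSeq. That transcript stood at 1.98, 1.07 and 2.12 FPKM in control, 0.66, 1.53 and 2.10 in SH1, and 0, 0.96 and 0 in SH3. Its SH3 difference was -2.50 ± 1.77 (edgeR adjusted p = 0.852), and without SH3 2 the edgeR adjusted p was 0.0442. ESPL1, or separase, the protease that cuts cohesin, had 1.57, 1.47 and 2.73 FPKM in control, 1.12, 2.82 and 0.68 in SH1, and 1.21, 0.94 and 0.47 in SH3, a difference of -1.15 ± 0.60 in SH3 (edgeR adjusted p = 0.670). PTTG1, or securin, its inhibitor, stood at 1.03 ± 0.22 FPKM in control, 2.01 ± 0.98 in SH1 and 1.26 ± 0.25 in SH3. The 4 genes together gave 4.51 to 6.34 FPKM in control, 7.03 to 8.15 in SH1 and 3.67 to 4.56 in SH3, so SH1 lay above the other groups. Of the 4, STAG1 had the largest gain, from a mean of 0.75 FPKM in control to 2.55 in SH1, and PTTG1 was higher too. STAG2 (1.72 in control, 1.43 in SH1) and ESPL1 (1.92 and 1.54) had lower means in SH1.

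Fitted differences of genes of origin licensing and firing were mostly below 0, with large errors. Of 9 genes, 8 had a fitted difference below 0 in SH1 (median -0.95) and 7 in SH3 (median -0.24), and 0 passed the edgeR threshold or an unadjusted p under 0.05 in any of the 4 comparisons. Over all 6398 gene sums tested, 3290 were below 0 in SH1 and 3285 in SH3. Both comparisons use the same controls, so their directions are not independent. Their summed level was 26.9 to 32.2 FPKM in control, 21.9 to 26.9 in SH1 and 22.2 to 26.5 in SH3, and SH1 1 lay just below control 2. ORC3, a subunit of the origin recognition complex, carried the largest share, at 15.3, 10.2 and 12.7 FPKM in control, 14.9, 11.9 and 9.74 in SH1, and 11.0, 11.0 and 11.3 in SH3. Its differences of -0.20 ± 0.20 in SH1 and -0.23 ± 0.20 in SH3 were within the spread between libraries. CDC7, the kinase that fires origins, stood at 5.99 ± 2.0 FPKM in control, 6.39 ± 1.92 in SH1 and 5.90 ± 0.49 in SH3.

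CDC6, the loader of the MCM helicase, had 1.75, 1.37 and 2.90 FPKM in control, 0.01, 0.88 and 0 in SH1, and 0, 0 and 2.89 in SH3. SH1 lay below all controls, while SH3 3 was at the level of control 3, and the differences were -2.90 ± 2.62 and -1.12 ± 2.46 (edgeR adjusted p = 0.882 and 0.999). CDC45, a partner of the active helicase, had 1.52, 5.22 and 1.54 FPKM in control, 1.24, 1.16 and 1.19 in SH1, and 1.18, 0.40 and 2.12 in SH3. Its difference was -1.35 ± 0.76 in SH1 (edgeR adjusted p = 0.613) and -1.34 ± 0.76 in SH3 (edgeR adjusted p = 0.710), and control 2 was high. Without control 2 the differences were -0.48 and -0.47. The helicase subunit MCM3 ranged from 0.84 to 9.71 FPKM within control alone, and MCM2 was at 0.29 ± 0.03 FPKM in control and at 0 in SH1 1, SH1 3 and SH3 1.

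Of the 6 retinoblastoma and E2F genes, 2 had a fitted difference above 0 in SH1 against control, 3 in SH3 against control and 5 in SH3 against SH1 (medians -0.19, -0.0032 and 0.18). In these comparisons and for both groups, 0 passed the edgeR threshold or an unadjusted p under 0.05. E2F5, a repressive E2F, stood at 6.89, 4.80 and 5.95 FPKM in control, 5.99, 6.06 and 4.85 in SH1, and 7.05, 7.75 and 7.45 in SH3. SH3 lay above all other libraries, although the difference was small, at 0.23 ± 0.22 against control (edgeR adjusted p = 0.975) and 0.36 ± 0.22 against SH1 (edgeR adjusted p = 0.687). E2F3, an activating E2F, had 7.33, 4.35 and 6.16 FPKM in control, 6.52, 5.42 and 3.12 in SH1, and 6.91, 6.31 and 6.88 in SH3, a difference of 0.50 ± 0.28 between SH3 and SH1 (edgeR adjusted p = 0.638) that was 0.25 without SH1 3. On counts scaled to library size, E2F3 and E2F5 are the 2 of the 6 genes whose SH3 libraries lay clear of SH1 (background 22%). In FPKM the E2F3 groups overlapped, with 6.31 in SH3 2 and 6.52 in SH1 1. TFDP1, the partner of E2F, ranged from 1.14 to 9.11 FPKM over the 9 libraries. RBL1, a retinoblastoma-like repressor of E2F genes, had 3.88, 2.49 and 3.73 FPKM in control, 3.56, 1.21 and 3.14 in SH1, and 1.31, 2.94 and 3.46 in SH3, with differences of -0.25 ± 0.51 and -0.11 ± 0.51.

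Both kinase inhibitors among the 50 genes had fitted differences above 0 in SH1 and in SH3, and 0 of them passed an unadjusted p under 0.05. CDKN2D, an inhibitor of the cyclin D kinases, stood at 0.66, 1.52 and 0.99 FPKM in control, 2.84, 1.98 and 3.82 in SH1, and 1.81, 1.60 and 1.83 in SH3. SH1 lay above both other groups, by 1.25 ± 0.59 over control (edgeR adjusted p = 0.486) and with a difference of -0.63 ± 0.58 for SH3 minus SH1 (edgeR adjusted p = 0.928). GADD45A, a stress-induced growth arrest protein, had 5.05, 3.59 and 7.36 FPKM in control, 15.8, 6.70 and 4.99 in SH1, and 3.75, 9.54 and 4.84 in SH3, where the SH1 mean rests on SH1 1. Of the cyclins, CCNA1, the germline-type cyclin A, had 0, 0 and 0.32 FPKM in control, 1.44, 2.32 and 2.71 in SH1, and 0.66, 0 and 0.42 in SH3. SH1 lay above every other library, and the difference was 4.18 ± 2.11 with counts at or near 0 in control (edgeR adjusted p = 0.538, limma-trend adjusted p = 0.0200). CCNB1, the mitotic cyclin, stood at 1.39 ± 0.36 FPKM in control, 1.91 ± 0.91 in SH1 and 1.63 ± 0.38 in SH3. CDK7, the kinase that activates cyclin-dependent kinases, was listed at 0 in controls 2 and 3, SH1 1, SH1 3 and SH3 3 and reached 4.02 FPKM in control 1.

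Growth arrest signals run through transforming growth factor beta and the SMAD proteins. TGFB2, a ligand of that family, stood at 0.53, 0.31 and 0.41 FPKM in control, 0.15, 0.10 and 0.03 in SH1, and 0.16, 0.12 and 0.16 in SH3. All knockdown libraries were below all controls at this low level, and SH1 overlapped with SH3. The difference was -2.30 ± 0.84 in SH1 (edgeR adjusted p = 0.345, DESeq2 adjusted p = 0.0110) and -1.56 ± 0.82 in SH3 (edgeR adjusted p = 0.674, DESeq2 adjusted p = 0.208). Its mean level is below the 1 FPKM that the rule for named genes asks, and it was chosen after its values were seen. SMAD3, which carries the signal to the nucleus, ranged from 0 to 7.77 FPKM within control alone. SMAD2, its relative, stood at 1.41 ± 0.89 FPKM in control, 2.06 ± 0.80 in SH1 and 1.42 ± 0.47 in SH3. CREBBP, an acetyltransferase that SMAD and E2F proteins recruit, had its highest level, 5.18 FPKM, in SH1 3 and 0 in SH1 2 and SH3 1.

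Among the DNA damage checkpoint kinases, CHEK1 was the steadiest, at 4.6 ± 0.89 FPKM in control, 4.84 ± 1.22 in SH1 and 4.80 ± 0.50 in SH3, with differences of -0.12 ± 0.27 and -0.01 ± 0.27. ATR, the sensor of stalled replication, had 0.35, 1.14 and 1.71 FPKM in control, 4.15, 0.09 and 0 in SH1, and 2.98, 4.96 and 4.86 in SH3. SH3 lay above all controls, by 1.90 ± 1.69 (edgeR adjusted p = 0.965), while in SH1 1 library was near the SH3 level and 2 were at or near 0. Without SH1 1 the SH1 difference was -4.75, against 0.18 ± 1.64 with it. ATM, the sensor of double-strand breaks, had 2.09, 1.14 and 1.21 FPKM in control, 5.27, 2.25 and 1.33 in SH1, and 3.83, 2.05 and 1.64 in SH3, and the groups overlapped. Of the spindle checkpoint genes, MAD1L1 had 4.17, 4.78 and 3.41 FPKM in control and 5.25, 5.98 and 6.91 in SH1, without overlap, while its summed count differed by 0.14 ± 0.46 (edgeR adjusted p = 0.998). FPKM divides by transcript length and the count does not, and the largest listed transcript of MAD1L1 was not the same in all libraries. TTK, the checkpoint kinase, stood at 1.02 ± 0.47 FPKM in control, 1.86 ± 0.42 in SH1 and 1.21 ± 0.27 in SH3.

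Subunits of the anaphase-promoting complex and of SCF, another ubiquitin ligase, gave 7 of 8 fitted differences below 0 in SH1 (median -0.32) and 5 of 8 in SH3 (median -0.22), and 0 of them passed an unadjusted p under 0.05. Over all 6398 gene sums tested, 3290 were below 0 in SH1 and 3285 in SH3. ANAPC5 had 3.85, 4.92 and 3.50 FPKM in control, 1.40, 2.91 and 0.33 in SH1, and 2.39, 5.65 and 3.58 in SH3. SH1 lay below all controls, with a difference of -1.55 ± 0.72 (edgeR adjusted p = 0.478) that was -2.45 without SH1 2 and -1.03 without SH1 3. ANAPC15, the most abundant of them, lay between 9.34 and 17.0 FPKM in control, 8.97 and 14.9 in SH1, and 8.70 and 14.8 in SH3. ANAPC11, the catalytic subunit, stood at 4.02 ± 0.85, 3.33 ± 0.51 and 4.44 ± 1.39 FPKM in this order. CDC16 ranged from 0.73 to 6.28 FPKM over the 9 libraries.

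Summed by role, 4 further sums lay clear of control beside origin licensing and firing, each over a handful of genes and with no test. In SH1 these were cohesin and separase genes, kinase inhibitors (8.68 to 18.6 FPKM, against 5.11 to 8.35 in control) and spindle checkpoint genes (6.64 to 8.92, against 4.74 to 5.77), and in SH3 DNA damage checkpoint genes (12.6 to 16.3, against 6.69 to 12.3). All 4 were higher than control, by small margins for kinase inhibitors and DNA damage checkpoint genes, and every other role overlapped with it. The gap of origin licensing and firing was small too, with SH1 1 at 26.87 FPKM and control 2 at 26.93. Gaps in single genes were common: scaled counts did not overlap with control in 19.7% of all genes for SH1 and 17.3% for SH3. No such share was computed for sums by role. In the cohesin and separase sum, STAG1 and PTTG1 had higher means in SH1 than in control, and STAG2 and ESPL1 lower ones. The spindle checkpoint sum is mostly MAD1L1, whose summed count overlapped between SH1 and control. ATR alone had 2.98 to 4.96 FPKM in SH3, against 0.35 to 1.71 in control.

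**Figure D3:**
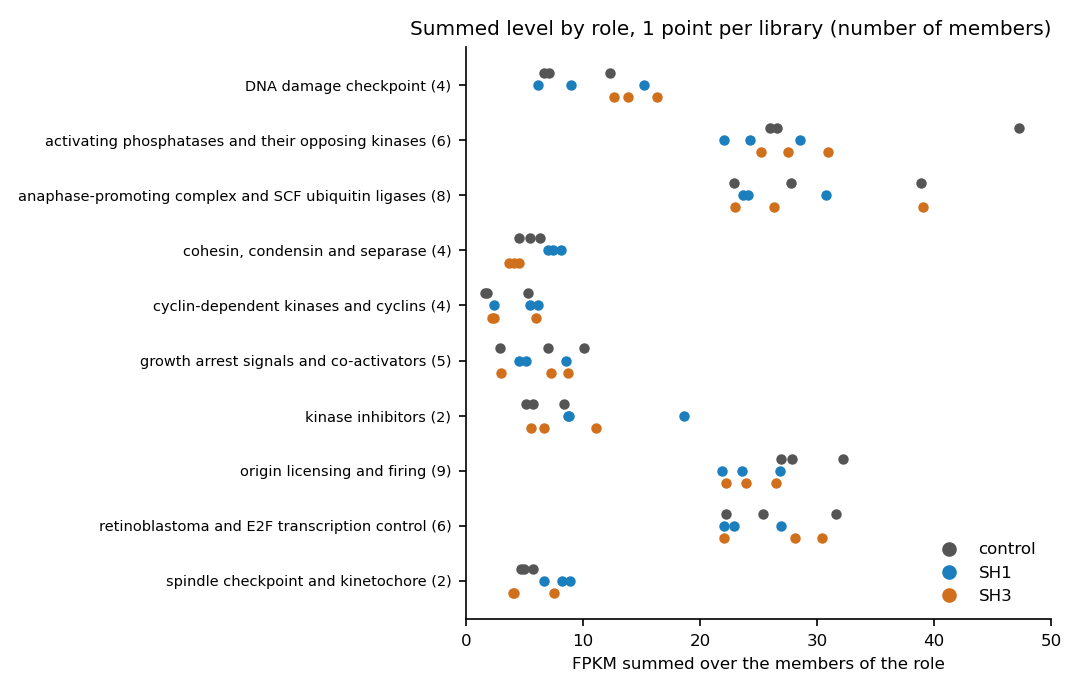
Summed FPKM of the cell cycle genes of each role in each library, 1 point per library (control grey, SH1 blue, SH3 orange), with the number of genes in brackets. Origin licensing and firing lies lower in both knockdown groups by a small margin (21.9 to 26.87 FPKM, against 26.93 to 32.2 in control). SH1 lies higher for cohesin and separase genes (7.03 to 8.15 FPKM, against 4.51 to 6.34 in control), kinase inhibitors and spindle checkpoint genes. The last sum is mostly MAD1L1, whose summed count overlapped between SH1 and control. In the cohesin and separase sum, STAG1 and PTTG1 are higher in SH1 on average, and STAG2 and ESPL1 lower. SH3 lies higher for DNA damage checkpoint genes, the other groups and roles overlap with control, and no role was tested.

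Below the gene sums, transcripts of single genes changed places, as they did in most genes of the table. Of the 50 genes, 36 had 2 or more listed transcripts, and in 30 of these the transcript with the highest count differed between libraries (83.3%, against 89.2% of the 4307 such genes in the table). The choice of transcripts bears on this share, since every listed one is 2-fold or more apart in control 1 and SH1 1, and 30 of the 50 genes have listed transcripts in both directions there. By edgeR, 0 of 131 tested cell cycle transcripts passed the adjusted threshold in SH1 against control (background 0.131%), SH3 against control (background 0.0286%), both groups (background 0.12%) or SH3 against SH1 (background 0.0972%). At an unadjusted p under 0.05 there were 10 (background 7.83%), 9 (background 5.87%), 12 (background 7.37%) and 6 (background 6.25%) transcripts in this order, close to the background shares. DESeq2 called 6 (2 higher, 4 lower; background 2.97%), 5 (2 higher, 3 lower; background 2.19%), 5 (2 higher, 3 lower; background 2.81%) and 3 (2 higher, 1 lower; background 2.45%) of the 120, 120, 120 and 116 transcripts for which it gave an adjusted p. These belong to RBL1, CDC25B, CDC25C, PKMYT1 and ESPL1 and were named after their values were seen. Where a group had no count in any library, 3 counts over the group stood in its place, and the resulting bound covers counting error only. The median coefficient of variation within a group was 91.7% for these transcripts, against 94.5% for all.

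RBL1 showed such an exchange, while its sum differed by less than its error. Its curated transcript NM_001323282 had 0 estimated counts in all controls, 136, 64.9 and 168 in SH1, and 38.3, 77.3 and 116 in SH3. The fold was at least 114-fold higher in SH1 and 74.0-fold higher in SH3 (DESeq2 adjusted p = 6.63e-06 and 5.02e-05, edgeR adjusted p = 0.202 and 0.404). The predicted XM_024451957 was likewise at 0 in all controls, with 112, 32.9 and 59.6 counts in SH1 and 31.0, 131 and 102 in SH3. In the other direction, NM_183404 had 26.8, 104 and 173 counts in control, 0, 16.5 and 51.8 in SH1, and 0 in all of SH3, at least 105-fold lower in SH3 (DESeq2 adjusted p = 0.00467, edgeR adjusted p = 0.820). XM_024451956 carried most of control 1, with 387 counts, and was present in every library. These 4 are the listed ones of 7 protein-coding RBL1 transcripts in RefSeq.

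The CDC25 phosphatases exchanged transcripts too. Of CDC25B, NM_001287522 had 26.4, 109 and 285 counts in control, 0, 0.31 and 0 in SH1, and 4.06, 0 and 0 in SH3 (DESeq2 adjusted p = 0.00296 and 0.0680, edgeR adjusted p = 0.533 and 0.820). NM_021872 had 57.7, 120 and 245 counts in control, 0, 0.54 and 0 in SH1, and 5.07, 0 and 0 in SH3. NM_004358 took nearly all CDC25B counts of SH1, at 131, 132 and 106, and was at 0 in control 1 and SH3 2. Of CDC25C, NM_001287582 had 177, 84.8 and 132 counts in control, 0 in all of SH1, and 96.2, 158 and 0 in SH3, at least 142-fold lower in SH1 than in control (DESeq2 adjusted p = 0.00183, edgeR adjusted p = 0.543). NM_001790 had 88.7, 55.5 and 147 counts in control and 198 to 347 in the 6 knockdown libraries, a difference of 1.34 ± 0.58 for both groups (edgeR adjusted p = 0.674). Of CDC25A, NM_001789 had 742, 557 and 514 counts in control, 253, 304 and 251 in SH1, and 36.2, 70.7 and 531 in SH3, while XM_006713434 was highest where NM_001789 was lowest. The CDC25A sum varied far less than either.

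Absences of a transcript from a whole group also appeared in PKMYT1 and ESPL1, in a knockdown group, and in CCNA1, in control and SH3. PKMYT1 transcript NM_182687 had 59.9, 38.3 and 196 counts in control, 0 in all of SH1, and 93.7, 0 and 42.9 in SH3. It was at least 106-fold lower in SH1 than in control (DESeq2 adjusted p = 0.00529, edgeR adjusted p = 0.578). ESPL1 transcript XM_011539025 had 59.2, 23.6 and 208 counts in control, 130, 151 and 0 in SH1, and 0 in all of SH3. It was at least 101-fold lower in SH3 than in control (DESeq2 adjusted p = 0.00874, edgeR adjusted p = 0.820). CCNA1 transcript NM_003914 had 30.9, 76.4 and 43.9 counts in SH1 and 0 in the other 6 libraries, at least 46.8-fold higher in SH1 than in control (DESeq2 adjusted p = 0.0886, edgeR adjusted p = 0.587). Of the 131 transcripts, 112 (85.5%) had a 0 in at least 1 library, against 79.5% of all transcripts, so single zeros were common. Of the deposited counts 65.11% are not whole, and how reads were assigned to transcripts is not given in the sources used here.

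**Figure D4:**
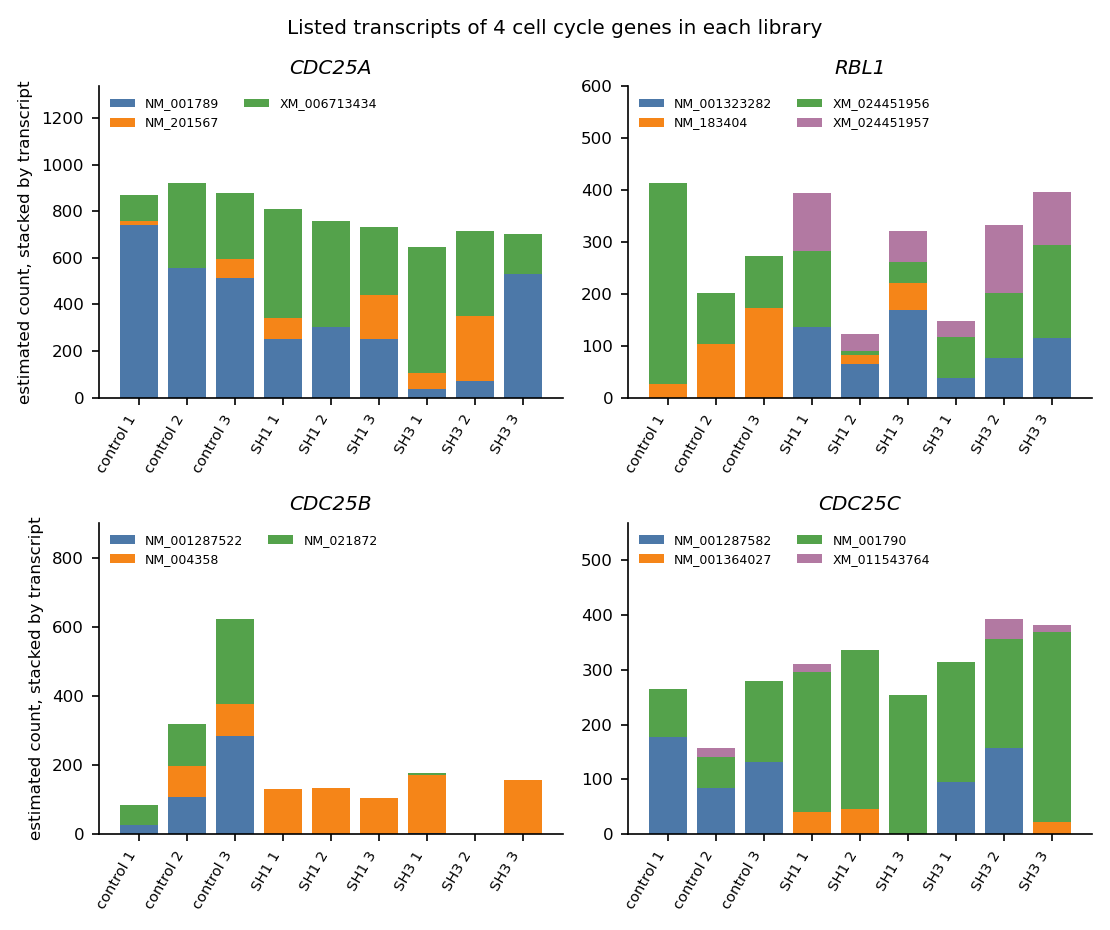
Estimated counts of the listed transcripts of CDC25A, RBL1, CDC25B and CDC25C in each of the 9 libraries, stacked by transcript; the height of a bar is the sum that was tested. The CDC25A bars stay alike in height while their composition changes, NM_001323282 and XM_024451957 of RBL1 appear only in knockdown libraries, and CDC25B in SH1 is almost all NM_004358.

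The cell cycle genes set aside for their PI3K-Akt annotation, with CDKN1A and MYC, number 11, and all were tested. CDKN1A, an inhibitor of cyclin-dependent kinases and a target of p53, rose in both knockdown groups and was the only one of the 11 to pass the edgeR threshold. Its level was 6.12, 5.89 and 5.48 FPKM in control, 12.8, 13.9 and 17.1 in SH1, and 17.3, 16.7 and 18.6 in SH3. The log2 fold change was 1.16 ± 0.18 in SH1 (edgeR adjusted p = 0.0163) and 1.51 ± 0.18 in SH3 (edgeR adjusted p = 0.0155). Without control 1 and SH1 1 the fold changes were 1.31 and 1.52, with edgeR adjusted p of 0.0527 and 0.0891. The other 10 did not pass in edgeR. Among them MYC, a growth-promoting transcription factor, had 3.50, 3.83 and 4.15 FPKM in control, 1.33, 1.84 and 2.23 in SH1, and 3.85, 3.80 and 2.82 in SH3, with -1.25 ± 0.28 in SH1 (edgeR adjusted p = 0.0767, DESeq2 adjusted p = 0.00116). CCNE1, the cyclin of entry into DNA replication, had 2.73, 2.63 and 3.10 FPKM in control, 4.69, 4.75 and 5.54 in SH1, and 4.0, 4.03 and 4.20 in SH3, with 0.66 ± 0.26 in SH1 (edgeR adjusted p = 0.398, DESeq2 adjusted p = 0.0283). The YWHAZ sum (an adaptor protein) was 6.87 ± 4.83 FPKM in control and 7.75 ± 2.54 in SH1. The median of the 11 was 0.06 in SH1 and -0.20 in SH3.

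Of 70 further genes known to accompany proliferation, 40 were listed, and 0 passed the edgeR threshold in any of the 4 comparisons. At an unadjusted p under 0.05 there were 3 in SH1 (2 higher, 1 lower; background 11.5%), 4 in SH3 (1 higher, 3 lower; background 8.39%), 5 for both groups (2 higher, 3 lower; background 10.2%) and 4 in SH3 against SH1 (1 higher, 3 lower; background 10.8%), all near the background. Of 39 with a value, DESeq2 called 1 lower in SH1 (background 6.81%), 1 higher and 2 lower in SH3 (background 3.87%), 1 higher for both groups (background 5.15%) and 2 lower in SH3 against SH1 (background 6.08%). These are 4 genes, named after their values were seen. CDCA8, a subunit of the chromosomal passenger complex, had 11.0, 8.12 and 7.12 FPKM in control, 4.90, 4.95 and 3.52 in SH1, and 9.0, 7.62 and 4.93 in SH3, with -1.13 ± 0.29 in SH1 (edgeR adjusted p = 0.131, DESeq2 adjusted p = 0.0130). TOP2A, the topoisomerase of dividing cells, had 0.37, 5.63 and 8.26 FPKM in control, 1.5, 2.78 and 7.29 in SH1, and 0.30, 0.30 and 0.37 in SH3, with -3.98 ± 1.09 in SH3 (edgeR adjusted p = 0.289, DESeq2 adjusted p = 0.00275). Control 1 was at the level of SH3. Without control 1 and SH1 1, the edgeR adjusted p of TOP2A was 0.0664 in SH3 against control and 0.0350 in SH3 against SH1, where it was 0.246 with all libraries. RFC1, a subunit of the replication clamp loader, had 0.32, 0 and 0.23 FPKM in control, 6.17, 9.57 and 0 in SH1, and 9.82, 3.06 and 11.5 in SH3 (edgeR adjusted p = 0.492 in SH3, DESeq2 adjusted p = 0.0458). LIN52, a subunit of the DREAM repressor complex, had 1.28, 0 and 0.60 FPKM in control, 0.44, 0.69 and 0.64 in SH1, and 0 in all of SH3 (edgeR adjusted p = 0.420 in SH3, DESeq2 adjusted p = 0.0235). The median log2 fold change over the proliferation genes was 0.01 in SH1 and -0.24 in SH3. MELK, a kinase of dividing cells and the most abundant of the proliferation genes, stood at 44.1 ± 3.33 FPKM in control, 43.0 ± 4.66 in SH1 and 41.0 ± 10.4 in SH3. TPX2, a spindle assembly factor, ranged from 2.82 to 32.1 FPKM within control alone. CEP55, which acts in the final separation of daughter cells, stood at 15.4 ± 8.84 FPKM in control, 7.71 ± 3.36 in SH1 and 11.9 ± 6.42 in SH3.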

How the data were processed

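Total RNA of 9 Caki-1 libraries was sequenced. Per the file headers, the authors deposited 4 values per transcript and library in 1 table: FPKM, TPM, an estimated count (expected count, 65.11% not whole) and a normalized read count, a signal equal to the count divided by 1 factor per library. The deposited FPKM was used for levels, the estimated count, rounded, for tests, and the deposited TPM and normalized count for the share and scaling of the libraries (the listed transcripts hold 4.202% to 5.176% of TPM). The submitters' processing notes name the mouse build mm10, whereas the gene numbers are human; aligner and counter are not given in the sources used here. Each library's columns were assigned by name, with 0 left unassigned.

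Transcripts were summed per gene number and fitted in 1 edgeR quasi-likelihood model of all 9 libraries (edgeR 4.0.16, R 4.3.3; TMM, filterByExpr with a minimum count of 10, robust dispersions), and likewise transcript by transcript. The SE is the fold change over the root of F. Of the 50 genes, 13 had at least 100 counts in every library. The SE depends on the spread between libraries as well as on the counts. Alternatives were other scalings and filters, DESeq2 1.42.0, limma-trend (limma 3.58.1, log2 of FPKM plus 1), the replicate number as a block, leaving out libraries, and leaving out further copies of a transcript. The scripts were tested on simulated data. Genes were named if past the edgeR threshold, if among the 5 lowest p each way without overlap between groups and with at least 1 FPKM on average, if among the 3 highest of a role, or from a list of regulators. The members, lists, roles and naming rule were chosen with earlier results of these data known.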

Additional observations from a re-analysis of the deposited data

How the results depend on the processing

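Counts of cell cycle genes past the threshold moved with the tool. By edgeR they were 0 in all 4 comparisons under every other scaling and filter tried, without further copies of a transcript, with only the groups compared and in the other 7 libraries (without control 1 and SH1 1). The DESeq2 Wald test gave 3 genes in SH1 (STAG1, TGFB2, CDC25A), 1 in SH3 (CDC25A), 3 for both groups and 0 in SH3 against SH1, and limma-trend gave 1 in SH1 (CCNA1, adjusted p = 0.0200). For transcripts, DESeq2 gave 6, 5, 5 and 3 in the same order. Leaving out 1 library gave 0 genes in SH1 and 0 to 1 in SH3, for both groups and in SH3 against SH1; the 1 was STAG2 without SH3 replicate 2 (adjusted p = 0.0442, 0.0362 and 0.0263), whose remaining SH3 libraries are at 0. For transcripts leaving out 1 library gave 0 throughout. The median log2 fold change, with an SD of 0.10 between libraries, was -0.053 in SH1, 0.053 in SH3 and -0.0073 for both groups by limma-trend. In the other 7 libraries it was -0.080 in SH1, -0.059 for both groups and 0.065 in SH3 against SH1. Leaving out 1 library, it ran from -0.28 to -0.071 in SH1 (lowest in size without control replicate 1), from -0.14 to -0.04 in SH3, from -0.23 to -0.048 for both groups (likewise) and from -0.06 to 0.04 in SH3 against SH1. The causes were not tested. Of 2921 single-gene values under alternatives, 2910 kept their side of the threshold and 11 passed it newly.

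With the replicate number as a block, 0 genes and 0 transcripts passed in all 4 comparisons, and the medians were -0.18, 0.01, -0.16 and -0.03. Same-numbered libraries deviated from their group means with correlations of -0.065 to 0.076 for gene sums. For transcripts these were -0.275 (control 1 and SH1 1) to 0.032. The choice of transcripts sets control 1 and SH1 1 apart, so correlations of control with SH1 cannot decide on a pairing. Between SH1 and SH3, same-numbered gene sums gave 0.064, 0.033 and 0.076, and other pairs -0.056 to -0.006. Between control and SH3 they gave 0.021, -0.007 and 0.02, and other pairs -0.047 to 0.03. All are small, no label states a pairing, and the main fit used none. The fit of only the groups compared was not run for both knockdown groups, where all libraries enter. Zeros limit the rest: 18 of the 50 genes have a 0 in at least 1 library, for a cause that was not tested.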
